A study of Mus musculus with 35 samples.

Results

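Tumor cells sorted from liver metastases were compared with tumor cells sorted from lung metastases, in the libraries labelled Smad4 on. These are 6 liver libraries and 6 lung libraries, 12 of the 35 RNA-seq libraries of the series, chosen by their labels of organ and *Smad4* status. The cells are KC-shSmad4 cells, of mouse pancreatic ductal adenocarcinoma (PDAC) lines. The lines were derived from primary tumors of mice that were made from male embryonic stem cells. The cells carry *Ptf1a*-Cre, the mKate2 reporter and a doxycycline (Dox)-inducible, GFP-linked shRNA against *Smad4*. The hosts of both organs were female athymic nude mice (*Foxn1*nu), 6 to 8 weeks old at transplantation, which lack T cells but keep myeloid cells, fibroblasts and endothelium. Liver metastases followed injection into the spleen, which was then removed, and lung metastases followed injection into the tail vein. By the protocol and the label, Dox was withdrawn 5 weeks after injection for the liver and 6 weeks for the lungs, and mKate2-positive cells were sorted 7 or 14 days later. The liver group held 3 libraries of day 7 and 3 of day 14, and the lung group held 2 of day 7 and 4 of day 14. The labels do not say which of the study's cell lines each library came from, so cell line, route of injection, time in the organ and organ cannot be told apart.

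A disseminated carcinoma cell can carry a stable epithelial identity, a mesenchymal one, or features of both. Epithelial cells are joined by tight junctions, built from claudins and occludin, and by desmosomes, while basal and squamous epithelia add keratins 5, 14, 15 and 17 under the transcription factor p63. Epithelial-mesenchymal transition (EMT) replaces these with vimentin, N-cadherin and fibronectin under Zeb and Twist factors, and in carcinomas TGF-beta is one of its inducers. Cells sorted out of an organ also bring RNA of that organ with them, such as albumin mRNA from hepatocytes or surfactant mRNA from alveolar type 2 cells. In bulk libraries, fewer cells of a type and less RNA per cell cannot be told apart.

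*Smad4* mRNA went against the label. It was at 14.8 to 16 CPM in the 6 liver libraries labelled Smad4 on and at 15.8 to 20.3 CPM in the 6 lung libraries, against 84 to 143 CPM in liver and 69.9 to 120 CPM in lung libraries labelled Smad4 off. CPM is a gene's share of the counts of its library, in counts per M, scaled by TMM. The libraries compared here are therefore the ones with little *Smad4* mRNA, and the label, with the Dox withdrawal it stands for, is kept as a name only. Between the organs the gene did not pass the test (log2 fold change -0.26 ± 0.10, edgeR adjusted p = 0.116). Depth was 11.9 to 38.2 M counts per library, 18.5 to 38.2 M in the liver and 11.9 to 20.5 M in the lungs, so that 3 counts correspond to 0.0786 to 0.252 CPM, a floor that covers counting error only. In 5 of the 12 libraries, 2 of the liver and 3 of the lungs, the mitochondrial gene *mt-Co3* had counts, at 22.6 to 48.6 CPM, and in the other 7 it had none. *Sumo2*, the gene of a small ubiquitin-like modifier, split the same libraries, at 84.2 to 130 CPM against 0.344 to 0.79 CPM. Libraries of an organ correlated at 0.974 to 0.995 when they shared this state and at 0.931 to 0.967 when they did not (log2 CPM, pseudocount 0.5). The split's own term called 904 genes higher (5.51%) and 298 lower (1.82%) in the libraries with *mt-Co3* counts. Of the called genes named below, 26 were not called within the 7 libraries alone. For these and some others the difference or the adjusted p is given within the 7 libraries, mostly beside the difference within the 5, and the part of the split in the results was not tested.

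Of 16397 genes tested, 654 were called higher in the liver (3.99%) and 694 higher in the lungs (4.23%). Counts of list members called, given below, are to be read against these shares. Calls needed more than a 2-fold difference and an adjusted p (Benjamini-Hochberg) under 0.05 by the quasi-likelihood test of edgeR, with day as covariate. Fold changes are log2 of liver over lung, so a positive value is higher in the liver, and are given ± their standard error. The 6 liver libraries all lay above the 6 lung libraries in 366 of the 654 genes, and all below them in 342 of the 694. Over all genes tested, groups did not overlap in 689 genes with the liver above (4.2%) and in 498 with the lungs above (3.04%). The median log2 fold change of all genes was -0.02. With a covariate for the *mt-Co3* split, 747 (4.56%) and 790 (4.82%) were called, and 1284 of the 1348 genes were called in both fits. In the 7 libraries without *mt-Co3* counts alone, 266 (1.54%) and 529 (3.07%) were called, and in the 5 with them 38 (0.234%) and 63 (0.387%).

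Called genes were sorted by where else they were read. The 14 lists of host cell markers held 18 of the 654 liver genes and 27 of the 694 lung genes. Another 424 liver genes (64.8%) and 496 lung genes (71.5%) had a mean of at least 1 CPM in the 5 primary pancreatic tumor libraries labelled Smad4 on, whose cells were never in liver or lung tissue. Of all genes tested, 80.1% fell in this second class. The remaining 212 liver genes (32.4%) and 171 lung genes (24.6%) were under that level in the primary tumors, against 19.2% of all genes tested. For these genes, RNA of the host organ and a gene that the tumor uses only in that organ cannot be told apart by level alone. *Krt5* and *Krt15* belong to this last class, while *Krt14* and *Krt17* were read in the primary tumors. The primary tumor libraries also held fibroblast markers, at a summed level of 9825 to 27271 CPM. A level of at least 1 CPM in them can therefore be stromal RNA, and stroma and tumor cells were not told apart by it.

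**Figure D1:**
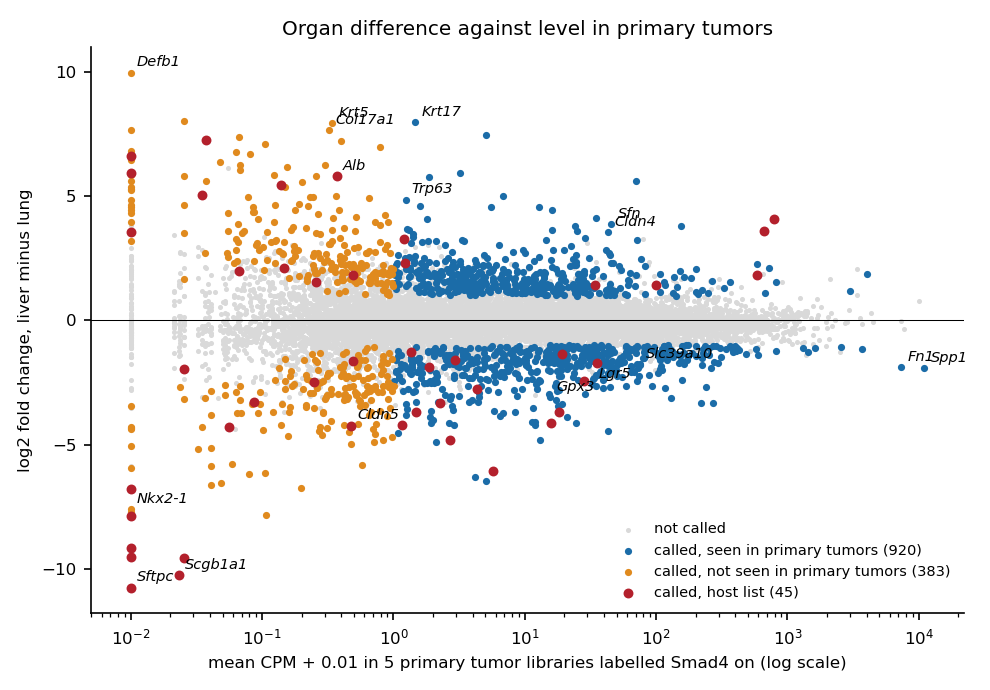
Each point is a tested gene, grey where not called. Its mean level in 5 primary tumor libraries labelled Smad4 on (CPM + 0.01, log axis) is set against its log2 fold change, liver minus lung. Called host-list genes (18 in the liver, 27 in the lungs) include those of the largest folds on the lung side. Outside these lists, 424 called liver and 496 called lung genes lie at or right of 1 CPM.

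Genes of basal and squamous epithelium were higher in the liver. Of 22 tested genes on a list of basal and squamous genes, 19 were called higher in the liver and 0 in the lungs (median log2 fold change 4.85). At an unadjusted p under 0.05 in edgeR, 19 were higher in the liver and 1 in the lungs, and DESeq2 called 19 and 1. The list was drawn up after these values were seen, so the count describes it and tests nothing. Its summed level was 865 to 10959 CPM in the liver, 141 to 197 CPM in the lungs and 83.6 to 228 CPM in the 5 primary tumor libraries labelled Smad4 on. The genes *Krt5*, *Krt14* and *Col17a1* are shown with the 250 bases before their RefSeq start site (GRCm38.p6, all on the minus strand, printed 5′ to 3′), because the account turns on them and they lie on separate chromosomes. The windows are chr15:101712906-101713155 for *Krt5*, chr11:100206031-100206280 for *Krt14* and chr19:47692043-47692292 for *Col17a1*. In the annotation of the counts *Krt14* spans chr11:100203162-100207548, so its window lies inside that gene and not upstream of it. *Col17a1* starts there at chr19:47692094, within its window. Capitals mark the motif matches found on either strand.
Krt5: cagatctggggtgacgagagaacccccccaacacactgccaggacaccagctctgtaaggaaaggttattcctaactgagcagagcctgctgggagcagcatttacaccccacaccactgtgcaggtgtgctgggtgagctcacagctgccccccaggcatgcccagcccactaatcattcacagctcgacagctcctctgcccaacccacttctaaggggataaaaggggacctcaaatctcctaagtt
Krt14: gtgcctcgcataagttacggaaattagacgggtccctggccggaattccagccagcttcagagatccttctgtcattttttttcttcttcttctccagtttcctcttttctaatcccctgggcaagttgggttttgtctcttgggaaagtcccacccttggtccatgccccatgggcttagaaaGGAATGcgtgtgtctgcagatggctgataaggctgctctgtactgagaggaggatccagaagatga
Col17a1: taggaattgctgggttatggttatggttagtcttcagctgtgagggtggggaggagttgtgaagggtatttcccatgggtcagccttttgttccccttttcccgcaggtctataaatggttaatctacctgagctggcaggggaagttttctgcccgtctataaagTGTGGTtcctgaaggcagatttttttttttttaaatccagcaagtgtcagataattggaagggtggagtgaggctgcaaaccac

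The motifs searched, on both strands, were AP-1 (TGANTCA), GRHL (AACCNGTT), TEAD (GGAATG), RUNX (TGTGGT) and KLF (GGGNGTGG) (RUNX and KLF letters can overlap). The *Krt14* window, inside the annotated gene, held 1 TEAD match at -66 from its RefSeq start. The *Col17a1* window held 1 RUNX match at -84 from its RefSeq start, and the *Krt5* window held none of the 5. The AP-1 letters were in 5 of 14 windows of the list's 13 genes with a RefSeq window (35.7%) and in 5.23% of the windows of all genes tested. With host-list genes left out, they were in 59 of 583 windows of genes called in the liver (10.1%). Of those called in the lungs, again without host-list genes, they were in 55 of 604 (9.11%). TEAD letters were in 14.3% of the list's windows against 11.2% for all genes tested, and RUNX letters in 14.3% against 11.1%. The KLF letters, the commonest of the 5, were in 14.3% of the list's windows against 20.6%. These are matches of letters in a short window, over few genes of the list.

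*Krt5*, the keratin that marks basal cells, was at 238, 997 and 4872 CPM in the liver and 0, 5.99 and 9.57 CPM in the lungs (lowest, median and highest of 6 libraries each; log2 fold change 7.93 ± 1.07, edgeR adjusted p = 0.00162). *Col17a1*, the transmembrane collagen of the hemidesmosome, was at 51.2, 168 and 790.0 CPM in the liver and 0.196, 0.881 and 1.40 CPM in the lungs (log2 fold change 7.65 ± 0.74, edgeR adjusted p = 0.000281). *Trp63*, which encodes p63, was at 8.01, 36.3 and 155 CPM in the liver and 0.681, 1.16 and 2.51 CPM in the lungs (log2 fold change 4.86 ± 0.67, edgeR adjusted p = 0.00185). In each of the 3 genes every liver library lay above every lung library, and day 7 mouse 3 of the liver lay highest. In the primary tumors they were at 0.0566 to 0.842 CPM, 0.136 to 0.544 CPM and 0.612 to 2.53 CPM, so the level in the liver exceeded that in the lungs and that in the pancreas. Without day 7 mouse 3 the *Krt5* difference was 7.43 ± 0.88 (edgeR adjusted p = 0.00125). Within the 7 libraries without *mt-Co3* counts it was 8.28, and within the 5 with them 8.08.

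*Krt17*, a keratin of stressed and appendage epithelium, had the largest fold change of the genes named by lowest adjusted p, at 8.51, 54.0 and 136 CPM in the liver and 0, 0.212 and 0.272 CPM in the lungs (log2 fold change 7.99 ± 0.68, edgeR adjusted p = 0.000151). *Ly6d*, a surface marker of stratified epithelium, was at 98.3, 316 and 729 CPM in the liver and 2.35, 3.30 and 9.33 CPM in the lungs (log2 fold change 5.93 ± 0.61, edgeR adjusted p = 0.000391). *Krt14*, the partner of keratin 5, was at 35.8, 156 and 775 CPM in the liver and 9.53, 13.2 and 18.6 CPM in the lungs (log2 fold change 3.81 ± 0.63, edgeR adjusted p = 0.00391). All 3 genes were non-overlapping, but *Krt14* was read in the lungs and in the primary tumors (9.58 to 43.9 CPM), while *Krt17* was near the floor in the lungs. *Krt15*, another basal keratin, reached 759 CPM in the liver and 2.15 CPM in the lungs (log2 fold change 7.23). *Sfn*, which encodes the epithelial protein 14-3-3 sigma, was at 179, 562 and 1968 CPM in the liver and 23.0, 42.2 and 54.3 CPM in the lungs (log2 fold change 3.86 ± 0.52, edgeR adjusted p = 0.00165). The gene was read in all 12 libraries and its groups did not overlap. For *Krt14* and *Sfn*, the log2 differences were 3.01 and 3.34 within the 7 libraries without *mt-Co3* counts and 4.80 and 4.64 within the 5 with them.

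Surface and junction genes of stratified epithelium were higher in the liver as well. The log2 fold change was 6.26 for *Lypd3*, 7.12 for *Trim29* and 6.28 for the water channel gene *Aqp3*, all called and non-overlapping. *Grhl3*, a transcription factor of the epidermal barrier, was at 7.78, 29.1 and 42.1 CPM in the liver and 1.79, 3.70 and 5.94 CPM in the lungs (log2 fold change 2.56 ± 0.48, edgeR adjusted p = 0.00675). *Ivl*, which encodes involucrin of the cornified envelope, had a smaller difference and overlapping groups (log2 fold change 2.06 ± 0.39, edgeR adjusted p = 0.00714). The desmosomal cadherin gene *Dsg3* was called at a log2 fold change of 4.64 and *Krt6a* at 4.55, both at no more than 5.04 CPM in the liver. *Dsc3* had 512 counts over the 6 liver libraries and 2 over the 6 lung libraries, a depth-scaled ratio of 152 with a 95% counting interval of 41.9 to 1260.2.

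On a list of desmosome and hemidesmosome genes, also drawn up after the values were seen, 7 of 17 were called higher in the liver and 0 in the lungs (median log2 fold change 0.88). *Perp*, a desmosomal membrane protein gene, was at 209, 288 and 428 CPM in the liver and 58.4, 98.1 and 115 CPM in the lungs (log2 fold change 1.57 ± 0.20, edgeR adjusted p = 0.00135). The plakophilin genes *Pkp1* and *Pkp3* had log2 fold changes of 2.84 and 1.93. *Lama3* and *Lamb3* encode chains of laminin-332, the basement membrane laminin to which hemidesmosomes bind. *Lamb3* was at 169, 219 and 341 CPM in the liver and 24.0, 53.9 and 79.8 CPM in the lungs (log2 fold change 2.18 ± 0.28, edgeR adjusted p = 0.00146), and *Lama3* had a log2 fold change of 2.36. None of these 5 genes overlapped between the organs. For *Pkp1* and *Pkp3*, the log2 differences were 2.19 and 1.49 within the 7 libraries without *mt-Co3* counts and 3.62 and 2.67 within the 5 with them. Of 10 laminin genes tested, 3 were called higher in the liver and 0 in the lungs.

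**Figure D2:**
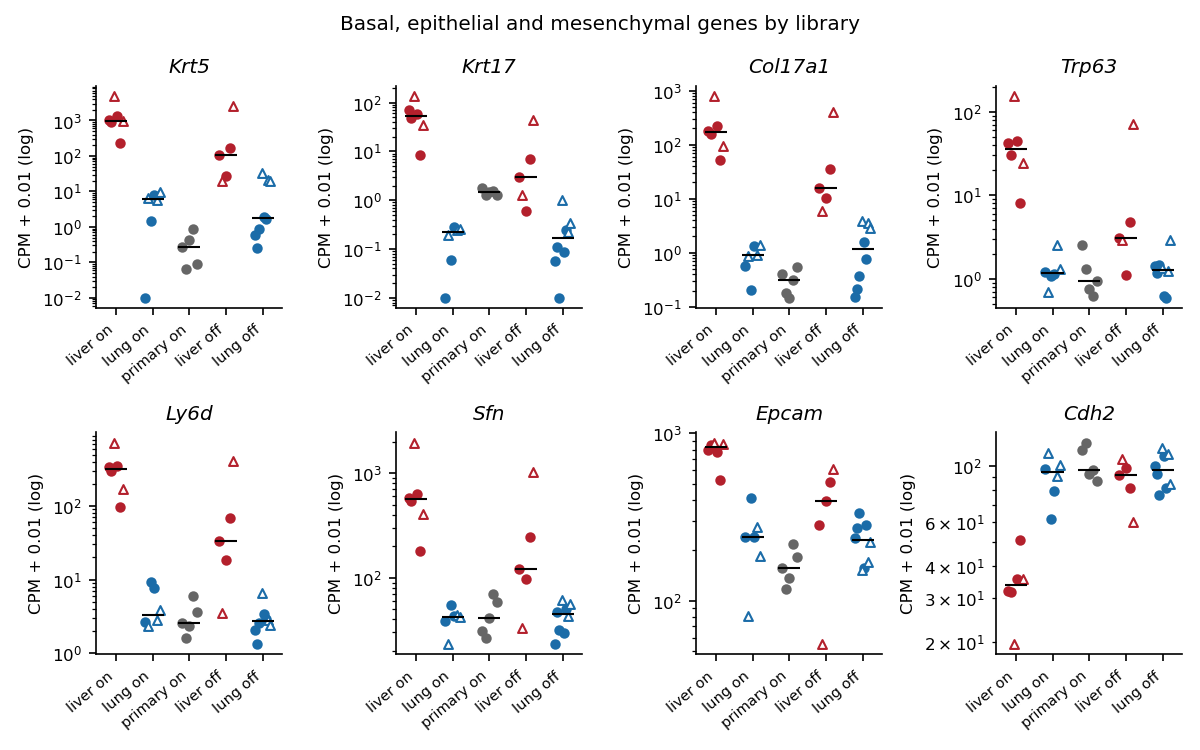
CPM + 0.01 (log axis) of epithelial genes in each library of 5 groups: liver, lung and primary tumors labelled Smad4 on, then liver and lung labelled Smad4 off. Points are libraries, open triangles those with *mt-Co3* counts, bars medians. In the liver labelled on, *Krt5* sits between 238 and 4872 CPM, above the 0 to 9.57 CPM of the lungs labelled on, and liver libraries labelled off spread between 19.3 and 2599.9 CPM.

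Genes of simple, glandular epithelium were higher in the liver too. Of 30 tight junction genes, 11 were called higher in the liver and 0 in the lungs (median log2 fold change 0.62). Of 14 genes of ductal tumor cells, 6 were called higher in the liver and 2 in the lungs, and of 24 gastric and mucin genes, 8 and 1 (median 1.13). The genes of these lists named here were read in all 12 libraries.

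*Cldn4*, a claudin gene of ductal epithelium, was at 173, 797 and 2421 CPM in the liver and 19.9, 54.1 and 103 CPM in the lungs (log2 fold change 3.57 ± 0.59, edgeR adjusted p = 0.00395). *Cldn7* was at 176, 266 and 386 CPM in the liver and 13.1, 37.8 and 131 CPM in the lungs (log2 fold change 2.52 ± 0.51, edgeR adjusted p = 0.00961). *Epcam*, the epithelial adhesion molecule, was at 523, 827 and 880.1 CPM in the liver and 80.9, 239.6 and 409 CPM in the lungs (log2 fold change 1.75 ± 0.31, edgeR adjusted p = 0.00520). The groups did not overlap in any of the 3. For *Cldn7* and *Epcam*, the log2 differences were 2.05 and 1.28 within the 7 libraries without *mt-Co3* counts and 3.25 and 2.55 within the 5 with them. *Esrp1*, an epithelial splicing regulator, was at 27.2, 40.8 and 72.3 CPM in the liver and 0.805, 4.68 and 12.1 CPM in the lungs (log2 fold change 3.25 ± 0.53, edgeR adjusted p = 0.00384), and its groups did not overlap. *Ocln* and *Tjp3*, of the tight junction's membrane and its cytoplasmic plaque, had log2 fold changes of 1.48 and 1.48, and *Cldn3*, at 1.66, overlapped between the organs. E-cadherin itself was close to the threshold, with *Cdh1* at 1150.3, 1459.5 and 1596 CPM in the liver and 308, 887 and 1027 CPM in the lungs (log2 fold change 0.83 ± 0.26, edgeR adjusted p = 0.0505), and was not called although its groups did not overlap. *Krt19*, the ductal keratin, had a log2 fold change of 0.91, under the fold threshold, and also did not overlap. For *Esrp1*, *Tjp3* and *Cldn3*, the log2 differences were 2.62, 1.07 and 1.41 within the 7 libraries without *mt-Co3* counts and 4.27, 2.12 and 2.10 within the 5 with them.

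Among gastric and mucin genes, *Lgals4*, which encodes galectin-4 of the gut epithelium, was at 3093, 3721 and 5052 CPM in the liver and 901, 1104 and 2262 CPM in the lungs (log2 fold change 1.56 ± 0.26, edgeR adjusted p = 0.00395). *Psca*, the prostate stem cell antigen of foregut epithelium, was at 52.8, 68.1 and 126 CPM in the liver and 4.64, 20.4 and 37.2 CPM in the lungs (log2 fold change 1.95 ± 0.45, edgeR adjusted p = 0.0159). *Krt20*, a keratin of the gut lining counted with the ductal list, was at 259, 382 and 610.1 CPM in the liver and 85.9, 155 and 211 CPM in the lungs (log2 fold change 1.44 ± 0.27, edgeR adjusted p = 0.00707). Every liver library lay above every lung library for all 3. *Foxa1*, a pioneer factor of foregut endoderm, was at 22.1, 42.5 and 79.1 CPM in the liver and 3.96, 9.68 and 17.0 CPM in the lungs (log2 fold change 2.06 ± 0.37, edgeR adjusted p = 0.00538). Its groups did not overlap either, and the foregut and liver transcription factors as a list were split, with 3 of 24 called higher in the liver and 4 in the lungs. The 2 ductal genes higher in the lungs were *Sox9*, a duct and progenitor transcription factor (log2 fold change -1.31 ± 0.21, edgeR adjusted p = 0.00313), and *Spp1*, which encodes osteopontin (log2 fold change -1.92 ± 0.29, edgeR adjusted p = 0.00256). For *Sox9*, *Psca* and *Lgals4*, the log2 differences were -0.86, 1.48 and 1.41 within the 7 libraries without *mt-Co3* counts and -1.85, 2.77 and 1.72 within the 5 with them.

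Among non-overlapping genes read in the primary tumors, those of lowest adjusted p in the liver, beside *Krt17* and *Ly6d*, were *Plch2*, *Proser2*, *S100a14* and *Galnt7*. *Plch2*, a phospholipase C gene, was at 4.45, 29.5 and 126 CPM in the liver and 0, 0.137 and 0.272 CPM in the lungs (log2 fold change 7.47 ± 0.81, edgeR adjusted p = 0.000495). *S100a14*, a calcium-binding protein gene of epithelia, was at 119, 184 and 235 CPM in the liver and 3.90, 12.3 and 23.8 CPM in the lungs (log2 fold change 3.65 ± 0.41, edgeR adjusted p = 0.000624). *Galnt7*, which adds sugars during O-linked glycosylation, was at 84.8, 105 and 126 CPM in the liver and 31.5, 44.9 and 54.2 CPM in the lungs (log2 fold change 1.23 ± 0.15, edgeR adjusted p = 0.000929). *Plch2* spread widely over the liver libraries, while *Galnt7* and *Proser2* (log2 fold change 1.47 ± 0.17, edgeR adjusted p = 0.000608) kept within narrow ranges in both organs. Of genes under 1 CPM in the primary tumors, *Defb1*, an epithelial beta-defensin, was at 2.51 to 14.4 CPM in the liver with 0 counts in the lungs. Against a floor of 3 counts over the lung group, that is at least 209-fold higher in the liver. *Fam47e* was at 0.144 to 7.73 CPM in the liver with 0 counts in the lungs, at least 70.0-fold higher by the same floor, and its call was lost within the 7 libraries without *mt-Co3* counts (edgeR adjusted p = 0.0527).

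Marker genes of liver cells were read in the liver libraries, those named here at low levels. On the hepatocyte list, 8 of 21 tested genes were called higher in the liver and 1 in the lungs (median log2 fold change 1.70). *Alb*, albumin, a main product of hepatocytes, was at 2.64, 10.9 and 16.7 CPM in the liver and 0, 0.0930 and 0.478 CPM in the lungs (log2 fold change 5.81 ± 0.77, edgeR adjusted p = 0.00161). *Fabp1*, the liver fatty acid-binding protein, was at 1.22, 5.20 and 8.58 CPM in the liver and 0, 0.236 and 0.834 CPM in the lungs (log2 fold change 3.55 ± 0.83, edgeR adjusted p = 0.0172). The 12 libraries did not overlap between organs for either gene, and the primary tumors were at 0.0665 to 0.766 CPM for *Alb* and at 0 for *Fabp1*. The sum over the hepatocyte list was 808 to 1496 CPM in the liver, 362 to 837 CPM in the lungs and 135 to 241 CPM in the primary tumors. The sums of liver and lungs overlapped, and which cells carried the list's RNA was not tested. The hepatocyte gene higher in the lungs was *Trf*, transferrin. Of the Kupffer cell list 3 of 4 and of the liver sinusoidal endothelium 2 of 6 were called higher in the liver, with 0 higher in the lungs. *Clec4f*, the Kupffer cell receptor, was at 0.231 to 1.19 CPM with 0 counts in the lungs, at least 18.03-fold higher. *Cd5l*, a macrophage-secreted protein, was at least 22.8-fold higher, and was not called within the 7 libraries without *mt-Co3* counts (edgeR adjusted p = 0.104). The log2 difference of *Fabp1* was 2.99 within the 7 libraries without *mt-Co3* counts and 4.08 within the 5 with them. *Clec4g*, a lectin of sinusoidal endothelium, had 150 counts in the liver and 1 in the lungs, a ratio of 89.2 (95% counting interval 15.8 to 3546).

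Stellate cell and fibroblast markers gave a mixed picture. *Ngfr*, listed as a stellate cell marker, was at 1.36, 5.34 and 31.8 CPM in the liver and 0, 0.158 and 0.349 CPM in the lungs (log2 fold change 5.47 ± 0.91, edgeR adjusted p = 0.00395), and its highest library, liver day 7 mouse 3, was the one highest for *Krt5*. *Ngfr* is also known from basal epithelium, and which cells carried it was not tested. Of 6 stellate genes tested, 1 was called higher in the liver and 1 in the lungs, against 3.99% and 4.23% of all genes tested. The fibroblast list had 3 of 13 called higher in the liver and 0 in the lungs (median 1.68), with a summed level of 416 to 3614 CPM in the liver, 176 to 1707 CPM in the lungs and 9825 to 27271 CPM in the primary tumors. *Lum*, which encodes the proteoglycan lumican, was at 12.8, 27.9 and 96.5 CPM in the liver and 0.866, 2.52 and 11.9 CPM in the lungs (log2 fold change 3.61 ± 0.71, edgeR adjusted p = 0.00818). The log2 difference of *Lum* was 2.07 within the 7 libraries without *mt-Co3* counts and 4.63 within the 5 with them. *Col1a1* overlapped between the organs and was not called (log2 fold change 2.07 ± 0.68, edgeR adjusted p = 0.0643). On the leukocyte list 0 of 15 were called higher in the liver and 1 in the lungs.

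Marker genes of lung cells were read in the lung libraries. Of the alveolar type 2 list 5 of 10, of the type 1 list 4 of 9, of the airway list 5 of 9 and of the lung capillary endothelium 7 of 10 were called higher in the lungs by edgeR, and 0 on these 4 lists in the liver. DESeq2 called 1 type 2 gene and 1 airway gene higher in the liver, against 7 and 5 higher in the lungs. The type 2 list summed to 322 to 614 CPM in the liver and 257 to 970 CPM in the lungs, with overlap. *Sftpc*, surfactant protein C of the alveolar type 2 cell, was at 0, 0 and 0.389 CPM in the liver and 57.5, 154 and 307 CPM in the lungs (log2 fold change -10.76 ± 0.71, edgeR adjusted p = 3.26e-05). *Sftpb*, another surfactant protein gene, was at 0, 0.0325 and 0.115 CPM in the liver and 6.62, 28.0 and 48.0 CPM in the lungs (log2 fold change -9.15 ± 0.69, edgeR adjusted p = 0.000101). *Ager*, a receptor gene of type 1 cells, was at 0.551, 0.855 and 1.45 CPM in the liver and 8.12, 17.6 and 26.4 CPM in the lungs (log2 fold change -4.21 ± 0.37, edgeR adjusted p = 0.000151). No liver library reached the lowest lung library in any of the 3. *Sftpc* and *Sftpb* had 0 counts in all 5 primary tumor libraries labelled Smad4 on, and *Ager* was at 0.962 to 1.70 CPM there. *Scgb1a1*, the secretoglobin of club cells, had 3 counts over the liver libraries and 3523 over the lung libraries, a ratio of 1975 (95% counting interval 675 to 9582). *Lamp3*, of the lamellar bodies of type 2 cells, had 2 and 535, a ratio of 449.9 (124 to 3725). *Sec14l3* had 0 counts in the liver and was at least 266-fold higher in the lungs.

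*Nkx2-1*, the lineage factor of lung epithelium, had 0 counts in all 6 liver libraries and was at 0.656 to 1.35 CPM in the lungs, at least 60.6-fold higher. It also had 0 counts in the 5 primary tumor libraries. *Foxf1*, a mesenchymal and endothelial factor of the lung, was at 0.115, 0.323 and 0.574 CPM in the liver and 1.73, 3.71 and 4.71 CPM in the lungs (log2 fold change -3.16 ± 0.29, edgeR adjusted p = 0.000176), and was read in the primary tumors at 0.136 to 5.04 CPM. A further 3 genes under 1 CPM in the primary tumors were named by their fold in the lungs. *Retnla*, a resistin-like gene of macrophages, had 3 counts in the liver and 733 in the lungs, a ratio of 411 (140.1 to 1997). *Slc38a5*, an amino acid transporter gene, and *Chia1*, a chitinase gene, had 0 counts in the liver and were at least 36.4-fold and 37.0-fold higher in the lungs. *Slc38a5* was read in every lung library, while *Chia1* had 0 counts in 1 of them and its call was lost without lung day 7 mouse 1 (edgeR adjusted p = 0.0569), day 14 mouse 2 (edgeR adjusted p = 0.0610) or day 14 mouse 4 (edgeR adjusted p = 0.0512).

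Some genes on the lung cell lists were read in the primary tumors as well. *Pecam1*, the endothelial adhesion molecule, was at 0.889, 1.87 and 2.23 CPM in the liver and 5.07, 12.6 and 17.4 CPM in the lungs (log2 fold change -2.75 ± 0.37, edgeR adjusted p = 0.00162). *Cldn5*, the endothelial claudin, had a log2 fold change of -4.23, and its primary tumor level was at most 0.919 CPM. *Cdh5*, VE-cadherin, was at 1.50, 3.76 and 4.67 CPM in the liver and 15.0, 36.3 and 70.9 CPM in the lungs (log2 fold change -3.67 ± 0.40, edgeR adjusted p = 0.000539). All 3 were non-overlapping, yet *Cdh5* was read in the primary tumors at 7.96 to 31.7 CPM and in liver libraries labelled Smad4 off at up to 70.8 CPM. On the alveolar macrophage list 3 of 7 genes were called higher in the lungs and 1, the lipid droplet gene *Cidec*, in the liver (median log2 fold change -1.04). *Krt79*, of that list, was at 1.83, 2.17 and 4.10 CPM in the liver and 4.61, 20.2 and 349 CPM in the lungs (log2 fold change -4.12 ± 0.87, edgeR adjusted p = 0.0112), with 1 lung library, day 7 mouse 2, far above the others. It was at 4.13 to 60.5 CPM in the primary tumors. The log2 difference of *Krt79* was -2.11 within the 7 libraries without *mt-Co3* counts and -5.15 within the 5 with them. *Aqp5*, a water channel gene of type 1 cells and of glands, was at 0.0261, 0.328 and 0.463 CPM in the liver and 3.93, 9.25 and 59.7 CPM in the lungs (log2 fold change -6.05 ± 0.85, edgeR adjusted p = 0.00206) and at 2.32 to 10.5 CPM in the primary tumors. *Tmem100* (-4.82), *Calcrl* (-3.69) and *Cxcl15* (-3.31) were also called, with log2 fold changes as given.

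**Figure D3:**
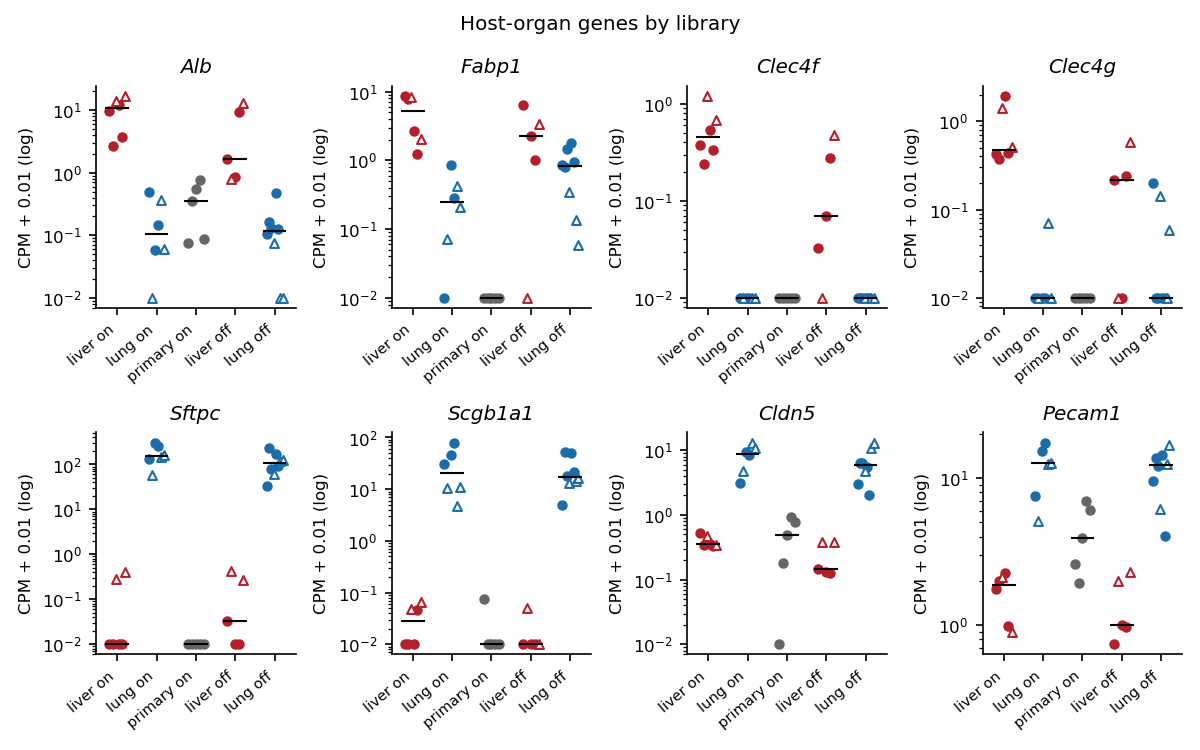
CPM + 0.01 (log axis) of markers of liver and lung cells in the libraries of 5 groups: liver, lung and primary tumors labelled Smad4 on, then liver and lung labelled Smad4 off. Points are libraries, open triangles those with *mt-Co3* counts, bars medians. *Sftpc* sits at 57.5 to 307 CPM in the lungs labelled on and at no more than 0.389 CPM in the liver, and *Alb* reaches 16.7 CPM in the liver and 0.478 CPM in the lungs.

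Outside the host lists, EMT genes were higher in the lungs. Of 12 EMT genes tested, 6 were called higher in the lungs and 0 in the liver (median log2 fold change -1.25). At an unadjusted p under 0.05 in edgeR, 9 were higher in the lungs and 1 in the liver. *Cdh2*, N-cadherin, was at 19.6, 33.7 and 50.6 CPM in the liver and 61.7, 93.9 and 112 CPM in the lungs (log2 fold change -1.45 ± 0.21, edgeR adjusted p = 0.00223). *Zeb2*, an EMT transcription factor gene, was at 12.5, 15.2 and 22.9 CPM in the liver and 27.3, 34.9 and 52.6 CPM in the lungs (log2 fold change -1.30 ± 0.22, edgeR adjusted p = 0.00398). *Twist2*, a further one, was at 0.538, 1.52 and 3.16 CPM in the liver and 3.78, 7.46 and 14.4 CPM in the lungs (log2 fold change -2.30 ± 0.46, edgeR adjusted p = 0.00834). Every lung library lay above every liver library in these 3. In the primary tumors *Cdh2* was at 87.0 to 123 CPM and *Zeb2* at 59.8 to 87.1 CPM, above every liver library. *Axl*, a receptor tyrosine kinase gene of mesenchymal carcinoma cells, was at 119, 154 and 193 CPM in the liver and 219.7, 362 and 552 CPM in the lungs (log2 fold change -1.41 ± 0.24, edgeR adjusted p = 0.00410), also without overlap. *Zeb1* did not overlap either, at a log2 fold change of -0.94 just under the fold threshold. These differences moved with the *mt-Co3* split. For *Cdh2*, *Zeb2*, *Twist2* and *Axl*, the log2 differences were -1.10, -0.93, -1.46 and -0.93 within the 7 libraries without *mt-Co3* counts and -1.92, -1.76, -3.57 and -1.84 within the 5 with them. With a covariate for the split, 5 of the 12 EMT genes were called higher in the lungs. Fibroblasts also express these genes. The fibroblast list summed to 416 to 3614 CPM in the liver and to 176 to 1707 CPM in the lungs, with overlap (medians 921 and 473 CPM). In the primary tumors its sum was 9825 to 27271 CPM. Which cells carried the EMT genes was not tested.

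Matrix and integrin genes held fewer calls for their number than EMT genes. Of 26 matricellular and matrix genes, 4 were called higher in the lungs and 1 in the liver. *Fn1*, fibronectin, was at 344, 787 and 1710.4 CPM in the liver and 1561, 3141 and 5197 CPM in the lungs (log2 fold change -1.89 ± 0.36, edgeR adjusted p = 0.00744). Its groups overlapped through liver day 14 mouse 2, the highest of the liver, and lung day 14 mouse 3, the lowest of the lungs. *Itgb3*, the beta 3 integrin gene, was at 1.65, 5.18 and 7.14 CPM in the liver and 6.98, 21.3 and 42.7 CPM in the lungs (log2 fold change -2.20 ± 0.42, edgeR adjusted p = 0.00727), and overlapped as well. Of 19 integrin genes 1 was called in each direction, and of 23 focal adhesion genes 0 in the liver and 1 in the lungs. The integrin and focal adhesion counts are near the shares of all genes tested, 3.99% in the liver and 4.23% in the lungs.

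Components of the TGF-beta pathway were called in both directions. Of 31 genes of the SMAD and TGF-beta list, 3 were called higher in the lungs and 1 in the liver (median -0.36). Of all genes tested, 4.23% and 3.99% were called. At an unadjusted p under 0.05 in edgeR, 15 of the list were higher in the lungs and 3 in the liver. Over all 16397 genes tested, 4725 were under that p in either direction. *Tgfb1*, the ligand, was at 50.6, 69.9 and 85.0 CPM in the liver and 103, 147 and 288 CPM in the lungs (log2 fold change -1.43 ± 0.26, edgeR adjusted p = 0.00549). *Tgfbr3*, the co-receptor betaglycan, was at 5.28, 7.30 and 8.79 CPM in the liver and 14.1, 20.8 and 34.2 CPM in the lungs (log2 fold change -1.74 ± 0.23, edgeR adjusted p = 0.00161). Both groups were separate for both genes. The *Tgfb1* difference was -0.91 within the 7 libraries without *mt-Co3* counts and -1.77 within the 5 with them. *Eng*, endoglin, a co-receptor that endothelium also carries, was at 2.33, 3.30 and 6.19 CPM in the liver and 4.58, 9.51 and 11.8 CPM in the lungs (log2 fold change -1.30 ± 0.31, edgeR adjusted p = 0.0183) with overlap. With the fibroblast and leukocyte sums as covariates it was no longer called (log2 fold change -1.19, edgeR adjusted p = 0.0608). *Id1*, an inhibitor of DNA binding that BMP and TGF-beta signals regulate, was at 64.2, 132 and 174 CPM in the liver and 43.2, 73.8 and 85.0 CPM in the lungs (log2 fold change 0.79 ± 0.24, edgeR adjusted p = 0.0466), under the fold threshold and with overlap.

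Of the 7 fibrogenic genes that the study followed, 2 were called higher in the lungs and 0 in the liver (median -1.10). *Has2*, hyaluronan synthase, was at 0.384, 1.64 and 2.82 CPM in the liver and 1.31, 5.39 and 11.4 CPM in the lungs (log2 fold change -1.84 ± 0.57, edgeR adjusted p = 0.0522), was not called and overlapped. Of 6 genes of cyclin-dependent kinase inhibitors, *Cdkn1c*, which encodes p57, was the 1 called higher in the lungs, at 1.16, 1.96 and 3.05 CPM in the liver and 2.23, 6.92 and 14.5 CPM in the lungs (log2 fold change -1.96 ± 0.43, edgeR adjusted p = 0.0131). Its groups overlapped, and without lung day 7 mouse 2, its highest library, the call was lost (log2 fold change -1.35, edgeR adjusted p = 0.0627). Within the 7 libraries without *mt-Co3* counts the log2 difference was -0.95, against -2.36 within the 5 with them. *Klf4*, a Krüppel-like factor that the study followed in the liver, was at 143, 296 and 386 CPM in the liver and 169.6, 218 and 328 CPM in the lungs (log2 fold change 0.18 ± 0.23, edgeR adjusted p = 0.661), with overlap. *Runx1*, which it followed in the lungs, was at 60.1, 89.1 and 105 CPM in the liver and 87.9, 117 and 138 CPM in the lungs (log2 fold change -0.51 ± 0.15, edgeR adjusted p = 0.0383), lower in the liver by less than the fold threshold. *Klf2*, of endothelium and quiescent cells, was the 1 of 16 KLF genes called, higher in the lungs (log2 fold change -1.59 ± 0.30, edgeR adjusted p = 0.00717). *Runx3* was the 1 of 4 RUNX genes called, higher in the lungs (log2 fold change -2.02 ± 0.40, edgeR adjusted p = 0.00862). For *Klf2* and *Runx3*, the log2 differences were -1.12 and -1.79 within the 7 libraries without *mt-Co3* counts and -2.15 and -2.69 within the 5 with them.

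Wnt genes leaned to the lungs. Of 23 Wnt targets and antagonists tested, 8 were called higher in the lungs and 1 in the liver (median -0.71). *Lgr5*, a target gene and R-spondin receptor, was at 2.81, 4.34 and 12.4 CPM in the liver and 17.2, 32.7 and 47.5 CPM in the lungs (log2 fold change -2.58 ± 0.35, edgeR adjusted p = 0.00162). *Dkk2*, a secreted antagonist, was at 3.80, 7.08 and 11.6 CPM in the liver and 17.1, 36.1 and 55.8 CPM in the lungs (log2 fold change -2.24 ± 0.34, edgeR adjusted p = 0.00254). *Wnt5a*, a ligand of the non-canonical branch, was at 2.32, 4.77 and 15.0 CPM in the liver and 16.9, 23.0 and 41.1 CPM in the lungs (log2 fold change -2.09 ± 0.40, edgeR adjusted p = 0.00713). The groups were separate in all 3, although liver day 14 mouse 2 came near the lungs for *Lgr5* and *Wnt5a*. *Wnt10a*, a canonical ligand, had a log2 fold change of -1.26. The gene higher in the liver was the ligand *Wnt4*, at 104, 157 and 222 CPM in the liver and 23.0, 69.8 and 90.5 CPM in the lungs (log2 fold change 1.30 ± 0.29, edgeR adjusted p = 0.0133). For *Wnt5a* and *Wnt4*, the log2 differences were -1.88 and 0.81 within the 7 libraries without *mt-Co3* counts and -2.50 and 2.18 within the 5 with them.

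In the Hedgehog pathway the ligand and its antagonist differed in opposite directions. *Shh*, Sonic hedgehog, was at 2.23, 11.4 and 61.4 CPM in the liver and 0.119, 0.598 and 1.27 CPM in the lungs (log2 fold change 4.30 ± 0.72, edgeR adjusted p = 0.00396). *Hhip*, the secreted and membrane-bound binder of Hedgehog ligands, was at 1.04, 3.14 and 7.97 CPM in the liver and 10.1, 44.8 and 125 CPM in the lungs (log2 fold change -4.11 ± 0.67, edgeR adjusted p = 0.00344). The groups did not overlap for either gene. For *Shh* and *Hhip*, the log2 differences were 3.12 and -2.43 within the 7 libraries without *mt-Co3* counts and 6.03 and -5.86 within the 5 with them. The pathway's target genes *Gli1* (log2 fold change 1.52 ± 0.61, edgeR adjusted p = 0.121) and *Ptch1* (log2 fold change 0.33 ± 0.14, edgeR adjusted p = 0.151) overlapped between the organs and were not called. Of 14 genes in the pathway, 2 were called in each direction. *Erbb3*, a receptor of neuregulins, was at 191, 226 and 291 CPM in the liver and 38.1, 95.4 and 124 CPM in the lungs (log2 fold change 1.44 ± 0.26, edgeR adjusted p = 0.00549), without overlap. It was among the 2 of 12 EGF ligand and receptor genes called higher in the liver, with 0 in the lungs. On the Notch list 1 of 12 was called higher in the liver and 0 in the lungs. Over all genes tested the shares called were 3.99% in the liver and 4.23% in the lungs.

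Of 20 IL-6 and acute phase genes, 5 were called higher in the lungs and 1 in the liver (median log2 fold change -0.60). Of the receptor genes on the list, *Lifr* and *Osmr* were called, and *Il6ra*, *Il6st* and *Il11ra1* were not. *Lifr*, the receptor of leukemia inhibitory factor, was at 4.69, 11.5 and 19.1 CPM in the liver and 31.2, 37.5 and 51.7 CPM in the lungs (log2 fold change -1.79 ± 0.26, edgeR adjusted p = 0.00218). *Osmr*, the oncostatin M receptor, was at 14.1, 19.1 and 23.5 CPM in the liver and 22.7, 56.8 and 83.2 CPM in the lungs (log2 fold change -1.61 ± 0.28, edgeR adjusted p = 0.00437). *Socs3*, a feedback inhibitor of this signaling, was at 334, 382 and 417 CPM in the liver and 575, 808 and 1188 CPM in the lungs (log2 fold change -1.23 ± 0.18, edgeR adjusted p = 0.00229). *Lifr* and *Socs3* were non-overlapping, and *Osmr* overlapped through 1 lung library, day 7 mouse 2. The acute phase gene higher in the liver was *Orm1*, a hepatocyte product, at 1.30, 1.59 and 5.04 CPM in the liver and 0, 0.0547 and 0.245 CPM in the lungs (log2 fold change 4.55 ± 0.64, edgeR adjusted p = 0.00208). Chemokines had 4 of 20 called higher in the lungs and 1 in the liver, and among interferon-stimulated genes 2 of 30 were called higher in the liver and 3 in the lungs. The shares of all genes tested were 3.99% in the liver and 4.23% in the lungs. *Oasl1* was higher in the liver (log2 fold change 1.43 ± 0.27, edgeR adjusted p = 0.00714), and so was *Oas1a* (log2 fold change 1.22 ± 0.26, edgeR adjusted p = 0.0110). *Gbp2*, a guanylate-binding protein gene, was higher in the lungs (log2 fold change -2.13 ± 0.50, edgeR adjusted p = 0.0168). All 3 overlapped. For *Socs3*, *Oas1a* and *Gbp2*, the log2 differences were -0.90, 0.92 and -1.99 within the 7 libraries without *mt-Co3* counts and -1.50, 1.56 and -2.59 within the 5 with them.

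Metabolic lists held calls in both directions. Of all genes tested, 3.99% were called higher in the liver and 4.23% in the lungs. Of 31 hypoxia and glycolysis genes, 3 were called higher in the liver and 0 in the lungs, while the list's median log2 fold change was -0.45. Its summed level was 6310.1 to 10656 CPM in the liver. In the lungs it was 14729.6 to 25859 CPM in the 3 libraries with *mt-Co3* counts and 6316 to 7852 CPM in the other 3, and the part of the split was not tested. *Car9*, a carbonic anhydrase induced by hypoxia, was at 56.7, 82.2 and 121 CPM in the liver and 13.9, 21.5 and 31.2 CPM in the lungs (log2 fold change 1.88 ± 0.23, edgeR adjusted p = 0.00100). *Adm*, adrenomedullin, was at 6.96, 9.25 and 17.0 CPM in the liver and 2.23, 3.48 and 5.26 CPM in the lungs (log2 fold change 1.40 ± 0.27, edgeR adjusted p = 0.00747). The groups did not overlap in either. Of 22 NRF2 targets 3 were called higher in the liver and 1 in the lungs (median 0.15), and the summed level, 3739 to 4477 CPM in the liver and 2686 to 3394 CPM in the lungs, did not overlap. *Gsta4*, a glutathione S-transferase gene, was at 678, 961 and 1348 CPM in the liver and 130.0, 212 and 444 CPM in the lungs (log2 fold change 2.01 ± 0.32, edgeR adjusted p = 0.00313), and *Nqo1*, a quinone reductase gene, had a log2 fold change of 2.98, both without overlap. *Cbr3*, a carbonyl reductase gene, was higher in the liver (1.50) and *Aox1*, aldehyde oxidase, in the lungs (-1.37). For *Gsta4*, *Nqo1*, *Cbr3* and *Aox1*, the log2 differences were 1.81, 2.73, 0.96 and -0.80 within the 7 libraries without *mt-Co3* counts and 2.22, 2.88, 2.21 and -1.89 within the 5 with them. Of 25 fatty acid and lipid genes, 2 were called higher in the liver and 3 in the lungs. *Pparg*, the lipid-sensing nuclear receptor, was at 43.7, 55.0 and 72.6 CPM in the liver and 13.7, 22.5 and 32.2 CPM in the lungs (log2 fold change 1.32 ± 0.23, edgeR adjusted p = 0.00519). *Scd1*, which desaturates stearate, was at 34.4, 43.7 and 78.1 CPM in the liver and 85.2, 137 and 157 CPM in the lungs (log2 fold change -1.44 ± 0.21, edgeR adjusted p = 0.00239). *Cd36*, a fatty acid receptor that macrophages and capillaries also carry, was at 0.431, 1.80 and 2.87 CPM in the liver and 5.45, 11.1 and 22.8 CPM in the lungs (log2 fold change -2.67 ± 0.54, edgeR adjusted p = 0.00907). All 3 were separate between the organs. Cholesterol synthesis had 0 of 24 called in the liver and 1 in the lungs, and iron and copper handling 2 of 18 and 1.

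Among the genes read in the primary tumors and of lowest adjusted p in the lungs, *Slc39a10*, a zinc importer gene, was at 21.2, 26.5 and 36.7 CPM in the liver and 69.6, 90.9 and 102 CPM in the lungs (log2 fold change -1.75 ± 0.16, edgeR adjusted p = 0.000176). *Gpx3*, the secreted glutathione peroxidase, was at 2.50, 4.65 and 6.07 CPM in the liver and 18.1, 40.9 and 63.1 CPM in the lungs (log2 fold change -3.09 ± 0.28, edgeR adjusted p = 0.000188). *Agt*, angiotensinogen, was at 0.646, 0.827 and 1.56 CPM in the liver and 5.55, 11.8 and 17.1 CPM in the lungs (log2 fold change -3.57 ± 0.35, edgeR adjusted p = 0.000281). No lung library overlapped with the liver, and in the primary tumors *Slc39a10* was at 69.5 to 85.9 CPM, the level of the lungs and not of the liver. *Ffar4*, a receptor of long-chain fatty acids, was also higher in the lungs (log2 fold change -1.63 ± 0.16, edgeR adjusted p = 0.000297). *Cacna2d1*, a calcium channel subunit gene, was close to the fold threshold (log2 fold change -1.01 ± 0.09, edgeR adjusted p = 0.000176), though its groups did not overlap. Without any of liver day 7 mouse 2, day 7 mouse 3 and day 14 mouse 1, or of lung day 7 mouse 1, day 7 mouse 2, day 14 mouse 1 and day 14 mouse 2, its fold fell just under 2, to log2 values of -0.97 to -0.99.

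Proliferation genes had no calls. By edgeR, 0 of 32 S phase genes and 0 of 35 G2 and mitosis genes were called in either direction, with medians of -0.10 and -0.25. At an unadjusted p under 0.05 there were 4 S phase genes and 1 G2 and mitosis genes, and DESeq2 called 0 and 0. Antigen presentation had 0 of 15 called, with 0 at an unadjusted p under 0.05 and 0 by DESeq2. Of 22 AP-1 and RAS-MAPK genes, 0 were called higher in the liver and 2 in the lungs. Erythroid, mesothelial and acinar markers had 0 of 5, 0 of 3 and 0 of 1 called (0, 2 and 1 at an unadjusted p under 0.05, and 0, 1 and 0 by DESeq2).

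**Figure D4:**
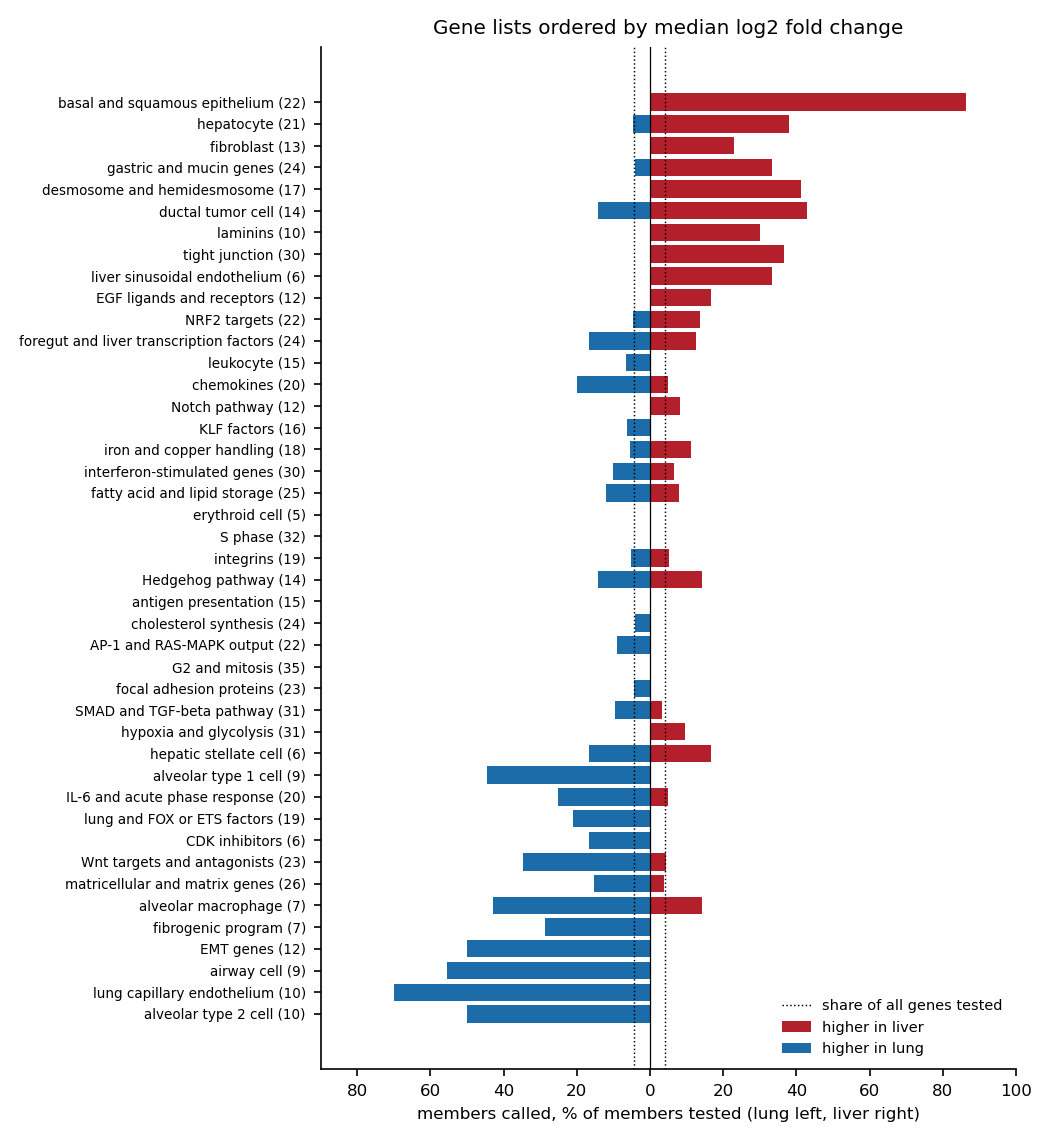
Gene lists ordered by their median log2 fold change, with the share of tested members called higher in the lungs (left) and in the liver (right), in percent. The lists of lung cells and EMT genes carry calls on the lung side, the basal and squamous list (19 of 22) and tight junction genes (11 of 30) on the liver side, and S phase and mitosis genes carry none.

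Within days the difference was found with fewer calls. On day 7, with 3 liver and 2 lung libraries, 301 genes were called higher in the liver (1.87%) and 171 higher in the lungs (1.07%) of 16056. On day 14, with 3 and 4 libraries, 60 (0.398%) and 106 (0.703%) of 15079 were called. *Krt5* had a log2 fold change of 9.40 on day 7 (edgeR adjusted p = 0.0785) and 7.07 on day 14 (edgeR adjusted p = 0.0151). *Sftpc* had -10.20 and -11.16 (edgeR adjusted p = 0.0211 and 0.00594), and *Cdh2* -1.95 and -1.08 (edgeR adjusted p = 0.0320 and 0.0680). A test of organ by day in edgeR called 0 genes in either direction, with 994 at an unadjusted p under 0.05 and a lowest adjusted p of 0.532, while DESeq2 called 9 and 55. Counts within days rest on single libraries. On day 7, 0 genes were called without liver mouse 1 or mouse 2, 45 and 9 without liver mouse 3, 136 and 109 without lung mouse 2, and 984 and 571 without lung mouse 1. On day 14, 0 and 7 were called without lung mouse 2, 101 and 94 without liver mouse 2, and 14 to 26 and 41 to 72 without any of the others.

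The organ difference was also read in the 13 liver and lung libraries labelled Smad4 off, which hold more *Smad4* mRNA. In a fit of 25 libraries, 243 genes (1.42%) were called higher in the liver and 346 (2.02%) higher in the lungs in the libraries labelled Smad4 off. Of the 654 genes called in the liver above, 653 had a value there, 550 had the same direction (84.2%, against 54% of all genes tested) and 92 were called. Of the 694 called in the lungs, 508 had the same direction (73.2%, against 46% of all genes tested) and 182 were called. The genes were chosen for their difference in the libraries labelled Smad4 on, so these shares and the smaller median differences labelled off, 0.62 against 1.90 and -0.55 against -1.88, are descriptions. The lung marker *Sftpc* was at -9.88 labelled off and *Sftpb* at -10.08 (organ by label -0.85 and 0.95, edgeR adjusted p = 0.809 and 0.774). *Krt5* was at 5.13 labelled off, with liver libraries of 19.3 to 2599.9 CPM and lung libraries of 0.251 to 34.1 CPM, and its organ-by-label difference was 2.82 (edgeR adjusted p = 0.484). *Cdh2* was at -0.11 labelled off and *Zeb2* at 0.31, with organ-by-label differences of -1.31 and -1.59 (edgeR adjusted p = 0.0509 and 0.0601).

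Tested directly, the organ difference itself differed by label in 20 genes (0.117% of 17163), all with a lower liver-minus-lung difference in the libraries labelled Smad4 on, and in 0 genes the other way (2786 at an unadjusted p under 0.05 in either direction, and 107 higher and 366 lower by DESeq2). *Mcub*, a subunit gene of the mitochondrial calcium uniporter, was at 1.54, 2.79 and 4.74 CPM in the liver and 4.94, 5.82 and 7.82 CPM in the lungs labelled on and at 9.56 to 37.0 CPM in the liver and 6.15 to 9.31 CPM in the lungs labelled off (organ by label -2.49, edgeR adjusted p = 0.0297). *Timp1*, an inhibitor of matrix metalloproteinases, was at 8.19, 23.7 and 44.3 CPM in the liver and 35.7, 59.9 and 116 CPM in the lungs labelled on and at 60.7 to 274 CPM and 40.1 to 96.0 CPM labelled off (organ by label -2.74, edgeR adjusted p = 0.0485). *Axl* had a log2 difference of 0.61 labelled off against -1.41 in the fit of the libraries labelled on (organ by label -2.00, edgeR adjusted p = 0.0485). The liver labelled on had the lowest median of the 4 groups for each of the 3. Between the organs labelled on, for *Mcub* and *Timp1*, the log2 differences were -0.91 and -0.89 within the 7 libraries without *mt-Co3* counts and -1.18 and -2.40 within the 5 with them. Without the liver library labelled Smad4 off of day 7 that was labelled paired-end, 0 genes were called. Leaving out each of the other 24 libraries in turn, the adjusted p was over 0.05 in 13 of 24 for *Mcub*, 15 for *Timp1* and 18 for *Axl*, and reached 0.107, 0.107 and 0.134, while all 3 differences kept their direction.

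**Figure D5:**
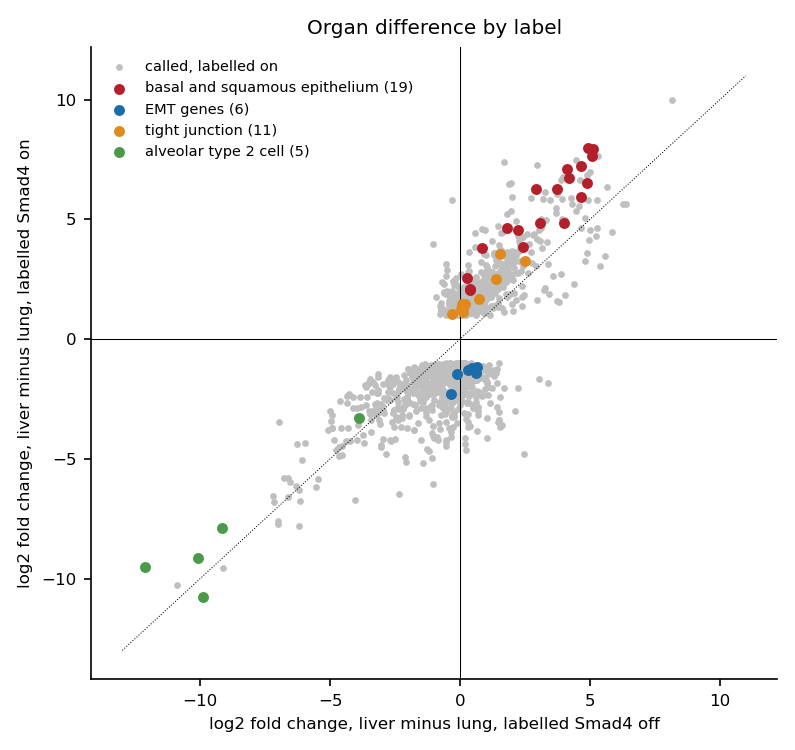
Each point is a gene called between the organs in the libraries labelled Smad4 on, with its log2 fold change, liver minus lung, in the libraries labelled Smad4 off (x axis) and on (y axis). The dotted line marks equal values, and the points cluster nearer to 0 on the x axis, with medians of 0.62 against 1.90 for liver genes and -0.55 against -1.88 for lung genes.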

How the data were processed

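RNA-seq of 12 libraries of sorted tumor cells labelled Smad4 on, 6 of liver and 6 of lung metastases, was compared, with 5 primary tumor libraries for reference levels and 13 liver and lung libraries labelled Smad4 off. The authors deposited raw counts per gene (53465 genes), from 75-base reads of stranded poly(A) libraries, labelled single-end but for 1 liver library labelled Smad4 off. Per the submitters' processing notes, FastQC 0.11.5, Trimmomatic 0.36, STAR 2.5.3a and featureCounts 1.6.3 were used, on GRCm38. Depth was 11.9 to 38.2 M counts per library. Of the per-sample columns 0 could not be matched to a sample, and 0 pairs of libraries were identical. The labels do not say whether libraries with different mouse numbers were prepared apart, so p-values measure the spread between these libraries.

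After filterByExpr (at least 10 counts and 15 in total, its defaults) and TMM scaling, genes were tested with edgeR 4.0.16 (glmQLFit with robust estimates, glmQLFTest) in R 4.3.3, with day as covariate and Benjamini-Hochberg adjustment over all genes tested. Organ by day was tested in the 12 libraries, and organ by label in the 25 liver and lung libraries of both labels. Standard errors are the log2 fold change divided by the square root of the F statistic. CPM values use TMM factors of all 35 libraries. DESeq2 1.42.0 was an alternative, as were other scalings and filters, covariates, a replicate block and leaving out libraries. The edgeR steps were tested on simulated counts. Promoter windows came from RefSeq, and motifs were searched with Python 3.11.15. Figures were drawn with matplotlib 3.10.9.

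Named genes were the 6 of lowest adjusted p in each direction among called genes read in primary tumors (mean of at least 1 CPM), on no host list and without overlap, the 4 of largest fold in each direction among those not read there, and up to 3 in each direction of the interactions. Predicted genes and pseudogenes were not named, and some alleles and genes are not reported here. Members of gene lists were described by value where the call held without any single library, with *Cdkn1c*, *Eng* and genes of the study's interest beside them. The lists and the comparison were chosen with earlier results of these data known, and the basal and desmosome lists, as well as the fits within libraries with or without *mt-Co3* counts, after the values here were seen.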

Additional observations from a re-analysis of the deposited data

Results flagged for a closer look

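The highest or lowest library stood apart from the nearest other by Dixon's 95% critical value in 36 of 240 groups. These were groups of 6 libraries, for 120 genes. Chance alone does this in about 1 in 20 groups only where values are normally distributed and groups are independent. The values here were CPM without a log scale, some near the floor, and the genes were chosen and shared outlying libraries. The 36 groups were therefore not compared with that rate. Liver day 7 mouse 3 stood apart in 18 of the 36 groups, and was the highest in each. Its values were *Krt5* (4872 CPM, next 1367 CPM), *Krt14* (775 CPM, next 198 CPM), *Krt15* (759 CPM, next 222 CPM), *Col17a1* (790.0 CPM, next 221 CPM), *Trp63* (155 CPM, next 45.3 CPM), *Lypd3* (56.0 CPM, next 15.0 CPM), *Trim29* (127 CPM, next 42.0 CPM), *Sfn* (1968 CPM, next 635 CPM) and *Dsg3* (5.04 CPM, next 1.56 CPM). They were also *Krt6a* (3.65 CPM, next 1.80 CPM), *Pkp1* (121 CPM, next 38.7 CPM), *Plch2* (126 CPM, next 35.7 CPM), *Defb1* (14.4 CPM, next 6.30 CPM), *Fam47e* (7.73 CPM, next 1.59 CPM), *Cldn4* (2421 CPM, next 924 CPM), *Ngfr* (31.8 CPM, next 9.61 CPM), *Orm1* (5.04 CPM, next 2.23 CPM) and *Shh* (61.4 CPM, next 13.8 CPM). The basal genes among them were called between the organs without this library as well.

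In the other libraries fewer genes stood apart, and values are those farthest from the rest of the group, highest where not named as lowest. Liver day 14 mouse 1 stood apart for *Gbp2* (40.2 CPM, next 17.1 CPM). Liver day 14 mouse 2 stood apart for *Epcam* (523 CPM, next 774 CPM, lowest), *Klf2* (65.7 CPM, next 32.5 CPM), *Runx3* (9.66 CPM, next 4.04 CPM), *Lgr5* (12.4 CPM, next 4.83 CPM) and *Wnt5a* (15.0 CPM, next 6.13 CPM). Liver day 14 mouse 3 stood apart for *Col1a1* (887 CPM, next 288 CPM). Liver day 7 mouse 2 stood apart for *Lgals4* (5052 CPM, next 3738 CPM). Lung day 14 mouse 1 stood apart for *Orm1* (0.245 CPM, next 0.0619 CPM) and *Lum* (11.9 CPM, next 4.19 CPM). Lung day 14 mouse 2 stood apart for *Retnla* (22.8 CPM, next 6.28 CPM). Lung day 14 mouse 3 stood apart for *Trp63* (2.51 CPM, next 1.30 CPM) and *Clec4g* (0.0597 CPM, next 0 CPM). Lung day 14 mouse 4 stood apart for *Lypd3* (0.698 CPM, next 0.0982 CPM), *Trim29* (0.648 CPM, next 0.227 CPM) and *Dsc3* (0.0997 CPM, next 0 CPM). Lung day 7 mouse 2 stood apart for *Krt79* (349 CPM, next 22.7 CPM) and *Id1* (43.2 CPM, next 69.9 CPM, lowest).

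The liver-minus-lung difference differed between labels by the organ-by-label test of edgeR for *Axl* (-2.00 on the log2 scale, adjusted p = 0.0485), *Mcub* (-2.49 on the log2 scale, adjusted p = 0.0297) and *Timp1* (-2.74 on the log2 scale, adjusted p = 0.0485), lower in the libraries labelled Smad4 on for each.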

How the results depend on the processing

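The count of genes higher in the liver (654) and in the lungs (694) stayed within 1.5 times under DESeq2, its size factors, no filter, no day covariate, removal of host-list genes, the *mt-Co3* covariate in edgeR, and the fibroblast and leukocyte covariates. Left out in turn, the 12 libraries gave 447 to 825 genes higher in the liver and 502 to 721 in the lungs. The counts were 416 and 416 with at least 10 counts in every library, 1004 in the liver with all 35 libraries in 1 fit, 1098 and 1140 with no fold threshold, and 998 in the liver by DESeq2 with the *mt-Co3* covariate. They were 266 in the liver in the 7 libraries without *mt-Co3* counts, and 38 and 63 in the 5 with them, where fewer libraries were fitted. With the mouse number within day as a replicate block they were 190 and 217, of which 402 were shared with the 1348 genes called without it. Same-numbered liver and lung libraries correlated in their deviations at 0.21 to 0.39 in 4 of 5 pairs and at -0.30 in the other, day 7 mouse 2, the pair whose libraries differ in *mt-Co3* counts. The labels give no shared origin, so the libraries were taken to share a number only, a decision that rests on this pair.

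On day 7 DESeq2 called 1053 and 713 genes, and leaving out 1 library gave 0 to 984 and 0 to 571. On day 14 it called 291 and 461, and leaving out 1 gave 0 to 101 and 7 to 94. Where 1 lung library of day 7 remained, it was assumed to vary like the liver libraries. For organ by day DESeq2 called 9 higher and 55 lower, and leaving out 1 library in edgeR gave 0 and 0. For organ by label, DESeq2 called 107 higher and 366 lower, the *mt-Co3* covariate 4 and 31, both together 207 and 410, and the fit without the paired-end liver library 0 lower. Leaving out 1 of the other libraries gave 0 to 194 higher and 0 to 336 lower. The share of called genes read in primary tumors was 73.5% (liver) and 80.3% (lungs) at 0.5 CPM and 38.2% and 50.6% at 5 CPM. *Klf4* ranged from -0.0051 (without liver day 14 mouse 2) to 0.3334 with 1 library left out, and changed sign there and in the 5 libraries with *mt-Co3* counts (-0.23). Of 109 called genes with values here, 76 stayed called under every alternative other than the fits of the 7 or the 5 libraries, 109 with the *mt-Co3* covariate, 107 with the fibroblast and leukocyte covariates, 77 under the replicate block and 106 by DESeq2. The cause of these changes was not tested. Depth limits genes near 0.0786 to 0.252 CPM, where 3 counts lie.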
